A study of Homo sapiens with 6 samples.

Results

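The 8 genes described here, ACTL8, SAGE1, CT83, CTAG1A, PRAME, TEX19, HENMT1 and STAG3, are normally read mainly in the germ line and are switched on in some tumours. They lie outside the GAGE family and were taken by gene symbol from the 14884 genes that could be named on the arrays. The genes were chosen with their values on these arrays in view, so their own levels and differences are given as a description and without a test.

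The arrays came from 3 human ovarian cancer cell lines. ES-2 is a line catalogued as ovarian clear cell carcinoma, and OVCAR-3 and SKOV-3 were both grown from the ascites of ovarian adenocarcinomas. Cells of each line received miR-135a-3p, one arm of the miR-135a hairpin, or miR-blank, the control, with 1 array for each line and transfection and 6 arrays in all. Each line is a single tumour's descendants, the labels do not say which molecule was transfected, at what dose or when the cells were harvested, and 1 array per condition leaves no replicate within a line, so the line was the replicate for the transfection and the 2 arrays of a line were its replicates for the comparison of lines.

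Cancer-testis genes are expressed in spermatogenic cells and held silent in somatic tissue, largely by DNA methylation of their promoters. Tumours can lose that silencing, and the proteins then become visible to T cells as antigens. Germ cells also depend on a small-RNA pathway, the piRNAs, which keeps transposons silent, and on a meiotic form of cohesin, the ring complex that holds sister chromatids together, with its own subunits in place of the somatic ones.

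The transfected arm is printed first because it is the treatment whose effect is described. The mature sequence is from RefSeq (GRCh38.p14, chr3:52294232-52294253, minus strand), it is 22 bases long, and capitals mark the seed, bases 2 to 8.
hsa-miR-135a-3p: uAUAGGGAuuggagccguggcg
The probe set of its hairpin gene, MIR135A1, read 12.57 and 1.75 in ES-2, 12.20 and 2.26 in OVCAR-3, and 11.58 and 2.07 in SKOV-3. In each case miR-135a-3p comes before miR-blank, on the log2 signal scale that all levels below share. The labels of the 6 arrays and this signal pointed the same way in all 3 lines.

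Promoters are shown for the 4 genes in whose windows a script found one of the motifs searched. In mouse cells, germline genes of this kind are held silent by a Polycomb complex that contains E2F6 and the MGA and MAX pair, which read TCCCGC and CACGTG. Both motifs were searched on both strands, and TCCCGC appears as GCGGGA where it lies on the other strand; the motifs do not overlap each other here. Each window runs from 250 bases before to 50 bases after an annotated start (RefSeq, GRCh38.p14) and is printed 5′ to 3′ on the strand of the gene, with the motifs in capitals. The windows are chr1:17755083-17755382, plus strand, for ACTL8, chrX:135893466-135893765, plus strand, for SAGE1, chrX:116462927-116463226, minus strand, for CT83, and chr7:100177474-100177773, plus strand, for STAG3.
ACTL8: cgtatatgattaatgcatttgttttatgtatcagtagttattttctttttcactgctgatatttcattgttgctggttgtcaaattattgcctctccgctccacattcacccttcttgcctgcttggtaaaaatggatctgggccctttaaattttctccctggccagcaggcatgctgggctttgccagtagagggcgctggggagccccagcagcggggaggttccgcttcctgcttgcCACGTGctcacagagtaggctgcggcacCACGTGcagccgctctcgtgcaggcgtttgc
SAGE1: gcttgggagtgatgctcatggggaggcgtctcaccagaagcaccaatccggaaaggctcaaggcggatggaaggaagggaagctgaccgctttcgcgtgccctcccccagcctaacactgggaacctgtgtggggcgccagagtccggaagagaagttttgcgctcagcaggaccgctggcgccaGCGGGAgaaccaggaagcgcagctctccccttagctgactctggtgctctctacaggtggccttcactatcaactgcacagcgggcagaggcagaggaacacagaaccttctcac
CT83: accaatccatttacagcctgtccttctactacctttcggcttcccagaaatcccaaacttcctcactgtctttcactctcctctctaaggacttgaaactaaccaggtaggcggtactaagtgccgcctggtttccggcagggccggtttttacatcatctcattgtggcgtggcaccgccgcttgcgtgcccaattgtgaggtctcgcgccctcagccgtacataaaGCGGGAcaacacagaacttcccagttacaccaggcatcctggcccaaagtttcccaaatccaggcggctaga
STAG3: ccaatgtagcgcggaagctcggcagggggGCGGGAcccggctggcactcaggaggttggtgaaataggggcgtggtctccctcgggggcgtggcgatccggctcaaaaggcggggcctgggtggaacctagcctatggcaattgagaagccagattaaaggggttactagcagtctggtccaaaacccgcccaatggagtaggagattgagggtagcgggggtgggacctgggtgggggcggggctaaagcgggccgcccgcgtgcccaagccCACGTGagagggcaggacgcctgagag
ACTL8 held CACGTG at 2 places, both close to the start, and no TCCCGC. SAGE1 and CT83 each held TCCCGC once, and the STAG3 window shown held each motif once. Windows were given for 6 of the 8 genes, 10 windows in all; CACGTG was found in 2 of the 6 genes and TCCCGC in 3. The 2 windows of STAG3 overlap and share the same CACGTG, and the window not shown held TCCCGC at a different place. Of all 35116 RefSeq promoters, 7.26% held CACGTG and 26.9% TCCCGC, and 6 genes are too few to set against these shares. The windows of HENMT1 and PRAME held neither, which says only that these letters are not in these windows. TEX19 and CTAG1A were not matched. CpG counts, which bear on how much methylation a promoter can carry, were 11 in ACTL8, 14 in SAGE1 and in CT83, 20 in the STAG3 window shown and 30 in the overlapping one, 44 and 27 in the HENMT1 windows, and 4, 12 and 13 in the PRAME windows, against a median of 14 (quartiles 4 and 28) over all promoters. Methylation and factor binding were not measured.

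Levels can be judged against the signal of genes that an ovarian line has no known use for. The 95th percentile of 114 genes of hair, cornified skin and chemosensation lay between 6.04 and 6.40 on the 6 arrays, and is called the background level below; the median over all probe sets lay between 4.16 and 4.23. Of the 48 member values, 5 lay below their array's median, namely HENMT1 and SAGE1 on both ES-2 arrays and STAG3 on the OVCAR-3 array with miR-135a-3p, and 19 reached the background level. Against the median over named genes, between 5.34 and 5.48, 21 of the 48 were low, among them 5 of the 6 ACTL8 values, 3 of CT83 and 2 each of TEX19 and CTAG1A. By array, 1 and 1 of the 8 genes reached the background level in ES-2, 3 and 3 in OVCAR-3, and 7 and 4 in SKOV-3. In each case miR-135a-3p comes before miR-blank. The members were picked by their values, and the share of all genes at that level was not counted. These counts are therefore not read as a difference between the lines. All 8 reached the background level on at least 1 array. All 8 also had a mean of at least 5 and entered the tests across genes, but ACTL8, HENMT1 and SAGE1 would fall under that mean with 1 of the arrays left out. Signals of different genes depend on their probes, so no gene's level is set against another's.

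**Figure D1:**
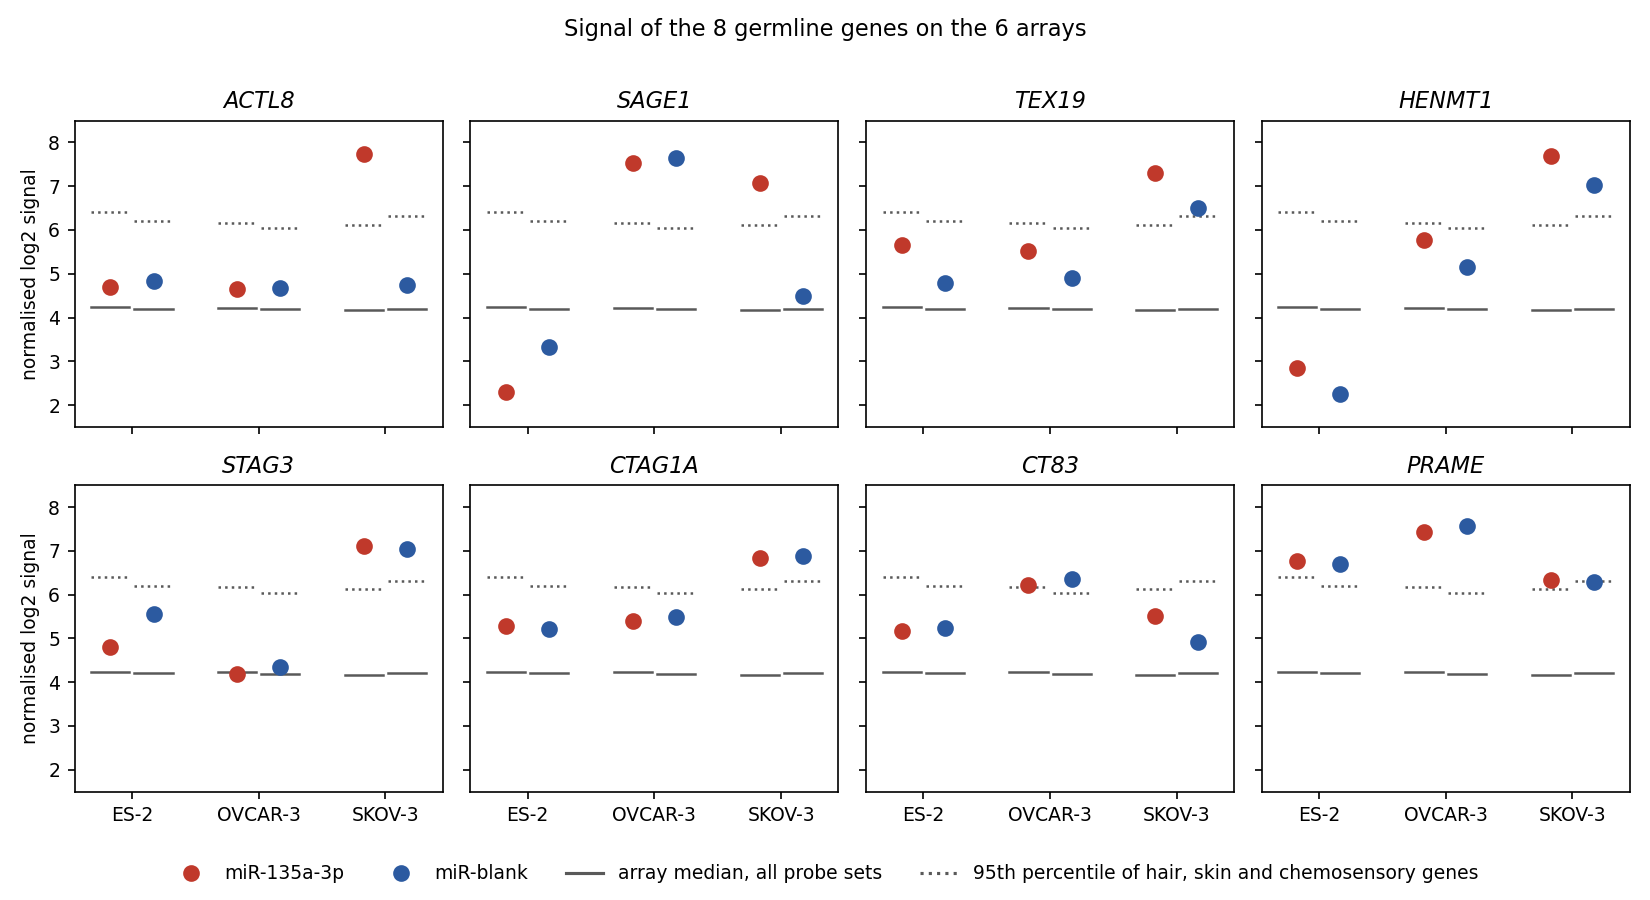
Log2 signal (y axis) of each of the 8 genes on each of the 6 arrays, 1 point per array, by cell line and transfection, with the array median and the background level (95th percentile of 114 genes of hair, skin and chemosensation) drawn for comparison. ACTL8 and SAGE1 separate the transfections in SKOV-3, at 7.74 and 4.74 for ACTL8 and 7.08 and 4.50 for SAGE1, while PRAME and CTAG1A separate the lines and not the transfections.

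After miR-135a-3p, ACTL8 and SAGE1 stood higher in SKOV-3 and not in the other lines, TEX19 and HENMT1 stood slightly higher in each of the 3 lines, and PRAME, CTAG1A, CT83 and STAG3 showed no shared direction. Across the lines limma called 1 of the 8620 tested genes at an adjusted p under 0.05 (0.0116%), MIR135A1 itself, and 0 of the 8 members. At an unadjusted p under 0.05 it gave 251 tested genes (2.91%). A 2-fold difference was exceeded in the upward direction by 2 of the 8 in SKOV-3, by 0 in OVCAR-3 and by 0 in ES-2, where the shares of all tested genes were 2.34%, 0.29% and 0.162%. In the downward direction 1 of the 8, SAGE1, passed 2-fold in ES-2, where the share of all tested genes was 0.51%, and 0 did so for OVCAR-3 (0.383%) or for SKOV-3 (1.66%). Since the members were picked by this contrast, these counts are not read as enrichment.

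ACTL8, an actin-like protein gene on chromosome 1 whose transcript is found mainly in testis, had the largest difference of the 8. It read 7.74 in SKOV-3 cells with miR-135a-3p and 4.74 in those with miR-blank, 4.70 and 4.83 in ES-2, and 4.65 and 4.67 in OVCAR-3. Only the SKOV-3 array with miR-135a-3p reached the background level, and the other 5 arrays lay between 4.65 and 4.83. The SKOV-3 difference was 3.01 on the log2 scale, or 8.04-fold, the fourth highest of the 8620 tested genes in that line, against -0.13 in ES-2 and -0.02 in OVCAR-3. The mean over lines, 0.95 ± 1.78 (SD, n = 3), rested on SKOV-3 and was -0.07 without it. Its nearest named coding neighbours did not share the step: ARHGEF10L differed by 0.04 and KLHDC7A by 0.14 in SKOV-3. ACTL8 and SAGE1 were picked with this contrast in view, so their ranks in SKOV-3 only describe them.

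The gene whose 6 values most resembled those of ACTL8, after centring each gene on its mean, was NTSR1, the neurotensin receptor gene, with a root mean square difference of 0.23 log2 units over the 6 arrays. NTSR1 read 8.40 and 5.36 in SKOV-3, 5.20 and 4.78 in ES-2, and 5.09 and 5.20 in OVCAR-3, with miR-135a-3p before miR-blank. The homeobox genes LHX1 and HOXD13 came next, at 0.39 and 0.47. LHX1 read 7.87 and 6.10 in SKOV-3 and HOXD13 8.19 and 6.55, in the same order. NTSR1 was the one tested gene within 0.25 of ACTL8, against 261 genes within that distance of PRAME.

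SAGE1, an X-linked cancer-testis antigen first found in sarcoma, differed in SKOV-3 from a different starting point. It read 7.08 in SKOV-3 cells with miR-135a-3p and 4.50 in those with miR-blank, while OVCAR-3 read 7.52 and 7.63 and ES-2 read 2.31 and 3.32. OVCAR-3 thus carried a signal above the background level with either transfection, SKOV-3 with miR-135a-3p alone, and both ES-2 values were under the array median; the lines did not overlap. The SKOV-3 difference was 2.58, or 5.97-fold, the tenth highest in that line, against -1.01 in ES-2 and -0.12 in OVCAR-3. The mean over lines was 0.48 ± 1.87 (SD, n = 3), and -0.56 without SKOV-3. Neighbouring INTS6L and MMGT1 differed by 0.33 and 0.38 in SKOV-3.

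The genes closest to SAGE1 in pattern were SPP1, the osteopontin gene, at 0.54 log2 units, then PARD6G, a cell polarity gene, at 0.69 and the protocadherin gene PCDHB3 at 0.80. SPP1 read 11.68 and 9.21 in SKOV-3, with 12.78 and 12.66 for OVCAR-3 and 5.89 and 7.62 for ES-2, with miR-135a-3p before miR-blank. No tested gene lay within 0.25 of SAGE1.

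SKOV-3 was the line with the widest differences over all genes, with an SD of 0.48 over the 8620 genes against 0.30 in ES-2 and 0.30 in OVCAR-3, and 4.0% of the tested genes passed 2-fold there in either direction against 0.673% in ES-2 and 0.673% in OVCAR-3. Among marker genes of other cells, CD68, a lysosomal protein of macrophages that tumour lines also express, read 10.20 with miR-135a-3p and 7.96 with miR-blank in SKOV-3, and the stromal matrix gene LUM read 2.84 and 6.05. Of the 4 leukocyte markers that could be named, CD68 was the one above the background level on any array, and 0 of 3 endothelial and 0 of 2 fibroblast markers were. The part of these shifts in the ACTL8 and SAGE1 values was not tested, and with 1 pair of arrays the transfection and other differences between the cultures cannot be told apart. In bulk RNA, more cells with a transcript and more transcript per cell cannot be told apart either.

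TEX19 and HENMT1 are both factors of transposon control in the germ line. TEX19, on chromosome 17, is best known from mouse, where its copies restrain retrotransposons in germ cells and placenta. It read 5.65 and 4.79 in ES-2, 5.52 and 4.90 in OVCAR-3, and 7.30 and 6.49 in SKOV-3, miR-135a-3p before miR-blank. The difference was positive in 3 of 3 lines, at 0.86, 0.62 and 0.81, with a mean of 0.76 ± 0.13 (SD, n = 3), and 0.74 without SKOV-3. Of the 8620 tested genes, 5 had a smallest difference over the lines at least as large as its 0.62, TEX19 itself and MIR135A1 among them. TEX19 was picked with this contrast in view, so this count only describes it. The ES-2 and OVCAR-3 values all lay below the background level, and both SKOV-3 values lay above it.

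HENMT1, on chromosome 1, encodes the methyltransferase that methylates the 3′ end of piRNAs and so stabilises them. It read 2.86 and 2.26 in ES-2, 5.76 and 5.15 in OVCAR-3, and 7.70 and 7.03 in SKOV-3, in the same order, a wide step between lines and a small one between transfections. The differences were 0.60, 0.61 and 0.67, with a mean of 0.63 ± 0.04 (SD, n = 3). For 7 tested genes, HENMT1 itself, TEX19 and MIR135A1 among them, the smallest difference was at least as large as its 0.60. Both ES-2 values were below the array median, and both SKOV-3 values were above the background level. Higher after miR-135a-3p in all 3 lines were 2 of the 8 members, TEX19 and HENMT1, against 9.54% of all tested genes. Lower in all 3 lines were 0 of the 8, against 13.4%. The members were picked with these values in view, so neither these counts nor the rank of HENMT1 is read as enrichment.

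The genes nearest to TEX19 over the 6 arrays were FEZ1 at 0.20 log2 units, NGEF at 0.28 and S100A2 at 0.28, and the one nearest to HENMT1 was PAQR5 at 0.30, followed by ZNF667-AS1 at 0.37 and HS3ST3A1 at 0.44. FEZ1, a neuronal transport factor, read 5.17 and 4.81 in ES-2, 5.30 and 4.98 in OVCAR-3, and 6.91 and 6.26 in SKOV-3. Of the neighbours of TEX19, SECTM1 differed by 0.35 in ES-2, 0.27 in OVCAR-3 and -0.53 for SKOV-3, and UTS2R by 0.34, -0.01 and 0.49 in the same order of lines, so each went with TEX19 in some lines and not in another. FNDC7, next to HENMT1, differed by -0.21 in ES-2 and by 0.61 in SKOV-3, and VAV3 on the other side read between 1.83 and 2.22.

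**Figure D2:**
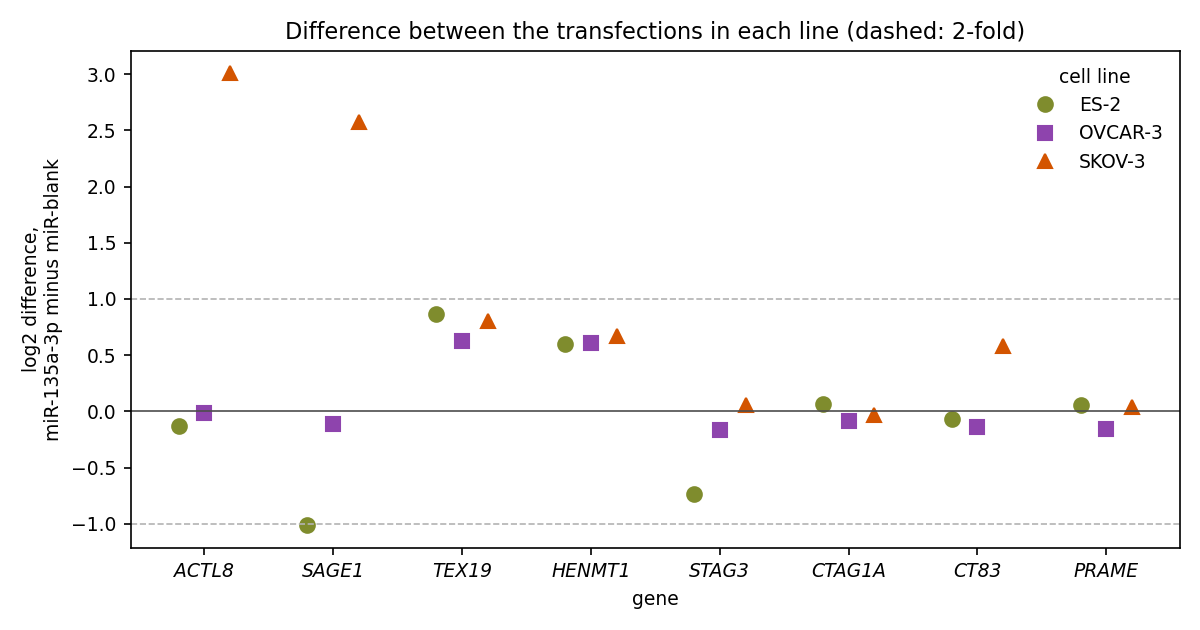
Log2 difference, miR-135a-3p minus miR-blank, of the 8 genes in each line, 1 point per line. TEX19 (0.62 to 0.86) and HENMT1 (0.60 to 0.67) keep their 3 points close together, while ACTL8 and SAGE1 spread from about 0 or below to 3.01 and 2.58 in SKOV-3.

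PRAME, CTAG1A and CT83 encode tumour antigens, and none of them differed by 2-fold between the transfections in any line. PRAME, on chromosome 22, gives a leucine-rich repeat protein that represses retinoic acid receptor signalling and serves as a substrate receptor of a cullin ligase. It read 6.76 and 6.70 in ES-2, 7.42 and 7.57 in OVCAR-3, and 6.33 and 6.28 in SKOV-3, miR-135a-3p before miR-blank, and the transfections differed by 0.05, -0.15 and 0.04. The mean difference was -0.02 ± 0.12 (SD, n = 3). Its signal was above the background level on both arrays of ES-2 and OVCAR-3, and in SKOV-3 just above it with miR-135a-3p and just below it with miR-blank.

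CTAG1A encodes the antigen NY-ESO-1. CTAG1A and its identical copy CTAG1B lie together on the X chromosome, and the probes cannot tell them apart; the 2 probe sets of CTAG1A held the same values. They read 5.29 and 5.22 in ES-2, 5.40 and 5.49 in OVCAR-3, and 6.84 and 6.87 in SKOV-3, and SKOV-3 lay above the background level. The mean difference was -0.02 ± 0.08 (SD, n = 3), and the lines, not the transfections, set the values apart. CTAG2, its neighbour and close relative, stayed between 4.43 and 5.10.

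CT83, also X-linked, encodes the antigen KK-LC-1, first found in lung cancer. It read 5.18 and 5.24 in ES-2, 6.22 and 6.36 in OVCAR-3, and 5.51 and 4.93 in SKOV-3, in the same order. OVCAR-3 was the line above the background level. The SKOV-3 difference of 0.58 lay at the 91.5th percentile of all tested genes, the differences in ES-2 and OVCAR-3 were -0.07 and -0.14, and the mean was 0.12 ± 0.40 (SD, n = 3), or -0.11 without SKOV-3.

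STAG3, on chromosome 7, is the meiosis-specific STAG subunit of cohesin. It read 4.81 and 5.55 in ES-2, 4.19 and 4.35 in OVCAR-3, and 7.10 and 7.05 in SKOV-3, in the same order. SKOV-3 was above the background level with both transfections, and the other lines were below it. The difference was 0.05 for SKOV-3, -0.73 for ES-2 and -0.16 for OVCAR-3, with a mean of -0.28 ± 0.41 (SD, n = 3). Partial copies of STAG3 lie on the same chromosome and may share its probes; one of them, STAG3L4, read between 4.46 and 5.91 and was called lower in ES-2 than in both other lines, at adjusted p of 0.00376 and 0.0123 in limma against OVCAR-3 and against SKOV-3.

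For every member except ACTL8, the range of the line means exceeded the transfection difference in each line. As mean ± SD of the 2 arrays of a line (ES-2, then OVCAR-3, then SKOV-3), levels were 5.22 ± 0.61, 5.21 ± 0.44 and 6.90 ± 0.57 for TEX19, and 2.56 ± 0.42, 5.46 ± 0.43 and 7.36 ± 0.47 for HENMT1. TEX19 in ES-2 and OVCAR-3 did not differ beyond that spread. STAG3 read 5.18 ± 0.52, 4.27 ± 0.12 and 7.07 ± 0.04, and CTAG1A 5.25 ± 0.05, 5.45 ± 0.06 and 6.86 ± 0.03. PRAME ran from OVCAR-3 (7.50 ± 0.11) through ES-2 (6.73 ± 0.04) to SKOV-3 (6.31 ± 0.03), and CT83 from OVCAR-3 (6.29 ± 0.10) to SKOV-3 (5.22 ± 0.41) and ES-2 (5.21 ± 0.05), which overlapped. SAGE1 ran from OVCAR-3 (7.58 ± 0.08) through SKOV-3 (5.79 ± 1.82) to ES-2 (2.82 ± 0.72), with no overlap. For ACTL8, SKOV-3 (6.24 ± 2.13) overlapped ES-2 (4.76 ± 0.09) and lay above OVCAR-3 (4.66 ± 0.01) on both arrays, and its spread was the transfection difference itself.

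In limma's comparison of lines, with the transfection as a block, a gene was called at an adjusted p under 0.05 and a difference of at least 2-fold. The members were among the genes fitted, but their own results are not given, since they had been picked by their values. Over all 8620 tested genes, 16.5% were called for ES-2 against OVCAR-3, 12.1% for ES-2 against SKOV-3 and 14.6% for OVCAR-3 against SKOV-3.

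Other germline genes were then compared between the lines by function, with the 8 members taken out of each list. Many of these genes are silent in one line or more, so the mean filter removes them, and the counts below are from the fit of all 14884 named genes without a filter, in which 2.52% of genes were called higher in SKOV-3 than in both other lines, 2.34% higher in OVCAR-3 and 2.84% higher in ES-2; 0.705%, 2.89% and 1.73% were called lower in that line than in both others. Of the meiotic cohesin, synapsis and recombination genes, 33 of 46 listed were named, and 7 of the 33 were called higher in SKOV-3 than in both other lines. With the filter 3 of 8 tested, SMC1B, SYCE2 and MEIOC, were called, against 2.97% of tested genes. The filter averages over all arrays, those of SKOV-3 included. Without SKOV-3, SMC1B (3.58 in ES-2 and 5.21 in OVCAR-3) and SYCE2 (4.64 and 5.14) would not reach a mean of 5. Both were thus tested only because of their SKOV-3 signals, so the filtered count is not read as enrichment.

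MEIOB, which binds single-stranded DNA during meiotic recombination, read 2.19 and 2.30 in ES-2, 2.28 and 2.19 in OVCAR-3, and 7.54 and 8.49 in SKOV-3, miR-135a-3p before miR-blank. The adjusted p in limma without a filter was 8.64e-05 for ES-2 against SKOV-3 and 8.02e-05 for OVCAR-3 against SKOV-3. SYCP2, a component of the lateral element of the synaptonemal complex, averaged 2.78 ± 0.01, 3.20 ± 0.20 and 7.14 ± 0.52 in ES-2, then OVCAR-3, then SKOV-3 (SD, n = 2 arrays), with adjusted p of 0.000199 and 0.000246 for ES-2 and for OVCAR-3 against SKOV-3. SMC1B, the meiotic SMC subunit of cohesin and so a complex partner of STAG3, averaged 3.58 ± 0.21, 5.21 ± 0.46 and 7.09 ± 0.44, with adjusted p of 0.000465 and 0.00487 in the same order.

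SYCE2, of the central element, averaged 4.64 ± 0.42, 5.14 ± 0.03 and 7.09 ± 0.82. MEIOC, a partner of the RNA helicase YTHDC2 that keeps germ cells in meiotic prophase in mouse, averaged 4.76 ± 0.04, 6.36 ± 0.13 and 7.46 ± 0.08. HORMAD1, which monitors the chromosome axis and is itself a cancer-testis gene, averaged 2.12 ± 0.23, 2.21 ± 0.37 and 6.02 ± 0.02, and HSF2BP, a meiotic partner of BRCA2, 4.66 ± 0.18, 3.87 ± 0.01 and 5.72 ± 0.31. The signals of HORMAD1 and HSF2BP stayed below the background level on every array, also in SKOV-3, so their steps rest on low signals.

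With each array left out in turn, 6 or 7 meiotic genes were called higher in SKOV-3, and 6 or more of these were among the 7. HSF2BP was lost without either miR-135a-3p array of ES-2 or SKOV-3, and MEIOC without the miR-blank array of OVCAR-3 or SKOV-3, where PSMC3IP was gained in the SKOV-3 case. The meiotic genes did not all follow SKOV-3. TEX11, an X-linked gene of crossover formation, averaged 2.56 ± 0.31, 9.23 ± 0.05 and 2.69 ± 0.02 in ES-2, then OVCAR-3, then SKOV-3 and was called higher in OVCAR-3. REC8, the meiotic kleisin subunit that pairs with STAG3, stayed between 4.09 and 4.57, RAD21L1 between 2.87 and 4.31, SYCP1 at or below 2.13 and SYCP3 between 1.45 and 1.95. Thus of the meiotic cohesin subunits STAG3 and SMC1B gave signals above background in SKOV-3 and REC8 did not. Of the 33 named meiotic genes, 10 reached the background level on any array.

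**Figure D3:**
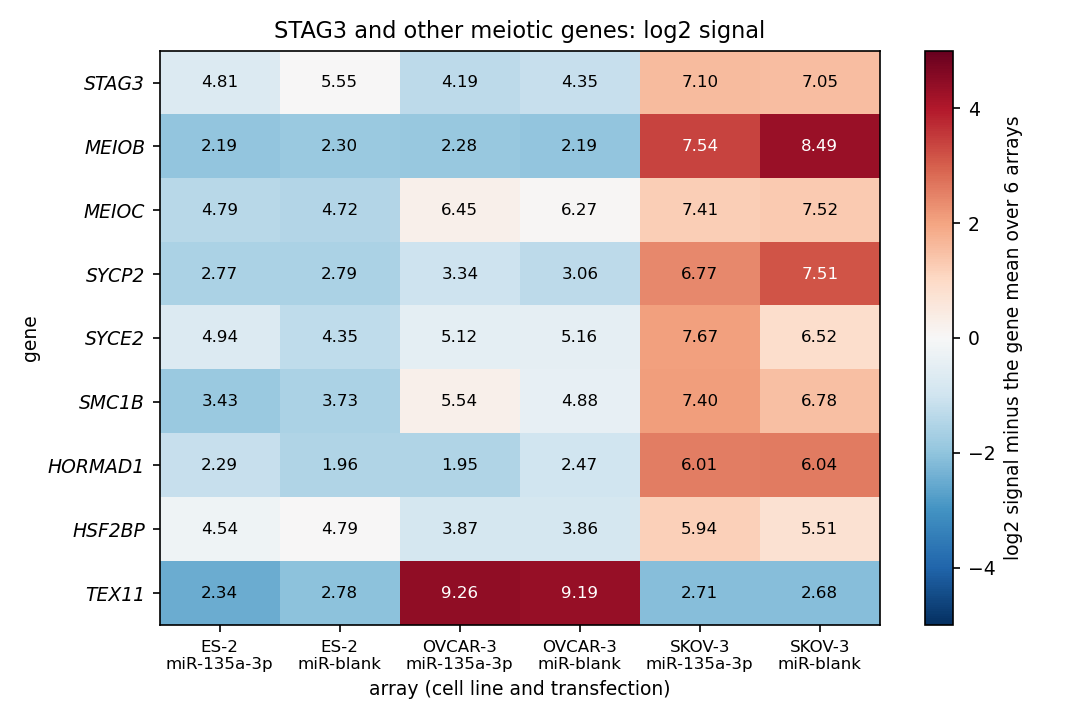
Log2 signals of STAG3 and of meiotic cohesin and synapsis genes on the 6 arrays, with 1 row per gene and 1 column per array; the numbers are log2 signals and the colour is the signal minus the gene's mean over the 6 arrays. The SKOV-3 columns are redder than the others for STAG3, MEIOB (7.54 and 8.49), SYCP2, SYCE2, SMC1B and MEIOC, and the OVCAR-3 columns for TEX11 (9.26 and 9.19).

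Of 14 somatic cohesin genes, which every dividing cell uses, limma with the filter called 2 for ES-2 against OVCAR-3, against 16.5% of all tested genes. For ES-2 and for OVCAR-3 against SKOV-3 it called 0, against 12.1% and 14.6%. With 14 genes these counts are not read as a difference from all genes. They come from another fit than the meiotic counts and are not set against them. Defining markers of germ cells were mostly at background: of 16, all named, 2 reached the background level on any array, PRM2 (5.80 to 6.31) and ZP3, both in OVCAR-3. The germ cell helicase DDX4 read between 2.30 and 2.86 and the RNA-binding factor DAZL between 3.40 and 3.96. Of 12 named ovarian epithelial markers, 6 reached it on any array. KRT18 did so on every array. PAX8, the Müllerian lineage factor, read 8.12 and 8.80 in SKOV-3 and lay below the background level in ES-2 and OVCAR-3. WT1, KRT8, MSLN and KRT7 reached that level on some arrays, but in no line with both transfections. FOLR1, SOX17, KRT19, ESR1, EPCAM and EMX2 stayed below it on every array, EPCAM between 3.78 and 4.32.

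The X-linked cancer-testis list had 12 of 87 genes named, and of these CSAG1 alone was called above both other lines, in OVCAR-3, at 6.36 and 6.23 there, 4.41 and 4.70 for ES-2, and 4.93 and 5.07 for SKOV-3, miR-135a-3p before miR-blank. A second cancer-testis list, mostly autosomal, had 68 of 108 named, 3 of them on the X chromosome (FMR1NB, PLAC1 and DDX53). LDHC, CCDC110 and NOL4 were called above both other lines in ES-2, and SPAG1, DCAF12 and HORMAD1, which is also in the meiotic list, in SKOV-3 (3 of 68 each). LDHC, CCDC110, NOL4 and HORMAD1 were below the background level on every array. CABYR, a calcium-binding protein of the sperm tail, was low in ES-2, at 3.63 ± 1.02, against 8.28 ± 0.27 for OVCAR-3 and 7.62 ± 0.22 for SKOV-3.

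The piRNA list, the pathway of HENMT1, had 24 of 32 named and 5 tested. None was called higher in SKOV-3. The PIWI proteins that bind piRNAs gave low signals, between 3.13 and 3.64 for PIWIL1, 3.62 and 3.90 for PIWIL2 and 2.28 and 2.68 for PIWIL4. PIWIL3 read between 3.42 and 4.42, below the background level on every array. Both ends of that range were in OVCAR-3, 4.42 with miR-135a-3p and 3.42 with miR-blank. MAEL read between 3.01 and 3.36 and TDRD1 between 2.62 and 3.26. GTSF1, a PIWI partner, was called higher in OVCAR-3, at 3.51 ± 0.04, 6.45 ± 0.20 and 3.97 ± 0.86, and MYBL1, the germ cell transcription factor that drives piRNA precursors in mouse, was lower in OVCAR-3, at 8.59 ± 0.05, 6.22 ± 0.23 and 8.11 ± 0.64.

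Called higher in OVCAR-3 than in both other lines were the germ cell and pluripotency factors KIT (4.57 ± 0.44, 11.92 ± 0.05 and 3.96 ± 0.07 in ES-2, then OVCAR-3, then SKOV-3), SALL4 (4.44 ± 0.13, 7.85 ± 0.41 and 4.51 ± 0.12) and LIN28A (3.59 ± 0.25, 7.63 ± 0.47 and 3.46 ± 0.22), 3 of the 38 named. Called higher in ES-2 were UCHL1 (8.04 ± 0.00, 4.18 ± 0.06 and 4.27 ± 0.01) and TFAP2C (5.91 ± 0.21, 4.26 ± 0.08 and 4.54 ± 0.08), 2 of the 38; TFAP2C was below the background level on every array. In SKOV-3 the KIT ligand gene KITLG averaged 7.73 ± 1.03, against 6.14 ± 0.01 in ES-2 and 2.79 ± 0.43 in OVCAR-3. Without SKOV-3, KITLG would not reach a mean of 5. It was thus tested with the filter only because of its SKOV-3 signals, and its filtered calls are not read. In limma without the filter, KITLG was called higher in SKOV-3 than in OVCAR-3 (adjusted p 0.000807) but not than in ES-2 (adjusted p 0.061).

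The silencing list holds genes tied to germline silencing, among them some that act in removing DNA methylation, and 38 of 48 were named. DNMT1, the maintenance methyltransferase, read 9.99, 9.96 and 9.83 on average in ES-2, then OVCAR-3, then SKOV-3. ATF7IP, a partner of the methyltransferase SETDB1, was called lower in SKOV-3, at 8.28 ± 0.03, 8.79 ± 0.02 and 5.94 ± 0.37. ZBTB38 was also called lower in SKOV-3 than in ES-2 (5.39 against 6.47). Other genes of the list were higher in SKOV-3. MGA (8.96 against 7.52) and DNMT3B (6.79 against 5.56) were called higher in SKOV-3 than in ES-2. MBD1 was called higher in SKOV-3 than in OVCAR-3 (8.03 against 7.03). TET1 and TET2, which act in removing DNA methylation, and ATF7IP2 were called higher in OVCAR-3 than in ES-2. CRABP2, which carries retinoic acid to the receptors that PRAME represses, was higher in SKOV-3, at 4.72 ± 0.24, 5.20 ± 0.03 and 8.57 ± 0.99.

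Under the transfection limma called 0 genes in each of these lists at an adjusted p under 0.05; at an unadjusted p under 0.05 it gave 1 gene of the meiotic list, SYCE2, and 0 of the cancer-testis, piRNA, somatic cohesin, germ cell and pluripotency, silencing and PRAME partner lists, against 2.91% of all tested genes. A further 48 tested genes came from the cancer-testis, piRNA, meiotic and germ cell lists. They had passed the mean filter, and some, such as TTK, KIF2C and PARN, were above the background level on all 6 arrays. The 48 thus do not stand for silent germline genes. Of them, 4 passed 2-fold in SKOV-3, against 4.0% of all tested genes. SPOCD1, which directs piRNA-guided methylation in mouse, read 6.46 and 5.24, and SYCE2 read 7.67 and 6.52, miR-135a-3p before miR-blank. KIF20B, a mitotic kinesin, differed by -1.05 and KITLG, the ligand of KIT, by -1.46. The median SKOV-3 difference was 0.62 for the 8 members, which were picked for it, 0.15 for the meiotic list, -0.20 for the piRNA list, -0.02 for the second cancer-testis list, 0.04 for the silencing list and 0.02 over all tested genes.

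**Figure D4:**
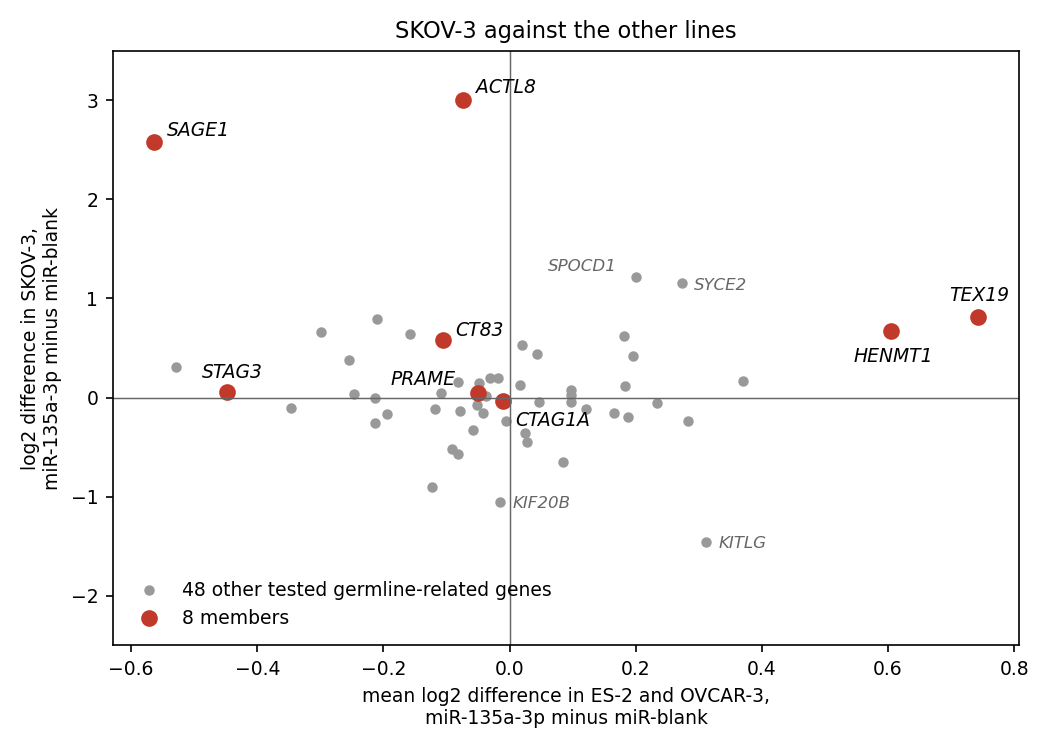
Log2 difference, miR-135a-3p minus miR-blank, in SKOV-3 (y axis) against the mean of the same difference in ES-2 and OVCAR-3 (x axis). Each point is 1 gene, for the 8 members and 48 other tested genes of the germline-related lists. ACTL8 and SAGE1 lie high on the SKOV-3 axis alone, TEX19 and HENMT1 lie to the right, and the other genes gather around 0, with 4 past 2-fold in SKOV-3.

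The members were not alike among themselves. The closest pair over the 6 centred values was PRAME and CT83, at a root mean square difference of 0.24 log2 units, then TEX19 and CTAG1A at 0.41, and the farthest was SAGE1 and STAG3 at 2.57. Genes near PRAME, CT83 and CTAG1A were common, 261, 173 and 74 tested genes within 0.25. The nearest to them were ZNF124 (0.05) for PRAME, TOMM40L (0.04) for CT83 and CDC25B (0.07) for CTAG1A. Few or no genes lay within 0.25 of the others, 2 for STAG3, 1 for TEX19, 1 for ACTL8, 0 for HENMT1 and 0 for SAGE1. STAG3 was nearest to CAMK1D (0.22), PNMA1 (0.24) and FHOD3 (0.28). The distance grows with the size of a gene's own range over the arrays, so a gene with a wide range has few near ones.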

How the data were processed

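Expression was deposited as log2 signal on 6 Affymetrix arrays, with 53617 probe sets each. Per the submitters' processing notes, which state neither role nor order, the tools were RMA, Transcriptome Analysis Console 3.0 and Affymetrix Expression Console 1.4. RMA makes the arrays' distributions equal, so a shift of most genes in 1 direction would not show, and the table held no detection calls. The platform annotation gave 16098 probe sets 1 gene and left 37519 unnamed; a gene with several probe sets was taken as the one with the highest mean. This gave 14884 genes, of which 8620 had a mean of at least 5 and were tested.

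Limma 3.58.1 (R 4.3.3) was run on the log2 values over all tested genes, two-sided with Benjamini-Hochberg adjustment. For the transfection the cell line was a block, since both arrays of a line come from the same line, and deviations of the 2 arrays from their group means correlated at 0.72 (ES-2), 0.72 (OVCAR-3) and 0.59 (SKOV-3). For the lines the transfection was a block, and a call needed an adjusted p under 0.05 and 2-fold. Nothing in the labels says that the arrays came from separate cultures, so p-values measure the spread between these arrays. The code was tested on simulated data.

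The members and the gene lists were chosen with earlier results of these data known. Named from each list were called genes (up to 6 per comparison), up to 3 genes per line at 2-fold with 1 array above the array median, and up to 4 of the highest mean; the 3 genes nearest each member were found by root mean square difference. PIWI proteins, MAEL, TDRD1, REC8, RAD21L1, DNMT1 and STAG3L4 were named for their role after their values were seen. The background level was chosen after seeing the data. Sequences are from RefSeq (GRCh38.p14).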

Additional observations from a re-analysis of the deposited data

Results flagged for a closer look

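SAGE1 differed between lines in opposite directions under the same transfection. The log2 difference, miR-135a-3p minus miR-blank, was 2.58 in SKOV-3 and -1.01 in ES-2, both beyond 2-fold. The difference between the lines was not tested, because no line has a repeated array. Both ES-2 values, 2.31 with miR-135a-3p and 3.32 with miR-blank, lay below the array median, so the ES-2 side was not shown to be above background.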

How the results depend on the processing

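With 1 array per line and transfection, no difference within a line has an error of its own, and signals near background compress folds. Limma called 1 gene for the transfection under every setting run except 1: with no replicate block, without the filter, at a mean of at least 6, after quantile normalization, with equal medians and with probe sets averaged it was 1, and with each line left out it ranged between 1 and 4, the 4 being without SKOV-3. The paired fit is the reported one, and dropping the replicate block left the count at 1. Between lines, leaving out 1 array gave 1044 to 1440 calls for ES-2 against OVCAR-3 (1420 reported), 937 to 1281 for ES-2 against SKOV-3 (1046) and 808 to 1409 for OVCAR-3 against SKOV-3 (1255). The last fell to 808 without the OVCAR-3 miR-135a-3p array and 817 without its miR-blank array, where 1 array stands for the line and is assumed to vary like the others. Other settings kept these counts within 1.5 times. Of 24 member differences under other normalizations, 24 moved by less than 1 SD, by at most 0.0384; with a line left out, 5 of 24 changed sign, in 5 members. With the median over named genes as the mark, the low member values came to 21 of 48 against 5 with the median over all probe sets. A floor from olfactory receptor genes was not run, since 1 such gene is named here.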

Other observations

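TKTL1, an X-linked transketolase-like gene often counted among cancer-testis genes, moved against ACTL8 and SAGE1 in SKOV-3. It read 3.91 in SKOV-3 cells with miR-135a-3p and 7.26 in those with miR-blank, 4.78 and 4.32 in ES-2, and 3.97 and 4.19 in OVCAR-3, so 1 array of 6 stood above the background level. Its mean over the arrays was 4.74, under the filter, and it was not tested. PASD1, of the same X-linked list, moved with ACTL8 and SAGE1 in SKOV-3, at 4.44 with miR-135a-3p and 2.72 with miR-blank. PASD1 stayed below the background level on every array and was not tested either.

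ATF7IP2, a SETDB1 partner, read 3.41 in ES-2 cells with miR-135a-3p and 6.36 in those with miR-blank, against 7.93 and 7.89 in OVCAR-3 and 6.24 and 6.65 in SKOV-3. CABYR, low in ES-2, read 2.91 and 4.35 there. ATF7IP2 was thus low on 1 ES-2 array and CABYR on both.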
